A study of Mus musculus with 9 samples.

Results

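The genes described here handle cellular iron. They are the ferritin heavy chain Fth1 and light chain Ftl1, the importers Tfrc and Slc11a2, the exporter Slc40a1 (ferroportin), the haem-degrading enzyme Hmox1, and the iron regulatory proteins Ireb2 and Aco1. Each was found by its exact symbol in the deposited gene table, which gave 8 of 23799 genes, and all 8 passed the filter on low values (at least 1 RPKM in at least 2 of 9 libraries). RPKM is the number of reads per kilobase of transcript scaled by a read total per library, so levels of different genes can be set side by side, while a difference between libraries also depends on the scaling.

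The 9 libraries were made from fluorescent cells sorted out of mouse tumours of 2 models. In the breast cancer (BC) model, GFP-positive cells came from tumours of 4T1-eGFP, a single mouse mammary carcinoma line carrying a green reporter, 28 days into the model, as lung metastases (numbers 4 and 6) and primary tumours (numbers 1 and 5). In the pancreatic ductal adenocarcinoma (PDAC) model, YFP-positive cells came from mice in which p48-Cre, driven by a pancreatic promoter, acts on p53F/+, KrasL/+ and a ROSA-LSL-YFP reporter, alleles that all the PDAC groups share. PDAC number 1, taken as 1 mouse because its libraries share an age and a genotype and the metastases are described as matched, also carried SIRT6F/F and was 25.67 weeks old, and it gave a liver metastasis, a lung metastasis and a primary tumour. Number 5, taken likewise, was 28.95 weeks old with no SIRT6 allele in its label, and it gave a liver metastasis and a primary tumour. Genotype, age and mouse cannot be told apart in the PDAC libraries, and the PDAC lung metastasis is 1 library.

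As background, ferritin is a hollow shell of heavy and light chains in which cells keep iron, the heavy chain oxidising it and the light chain helping the mineral core to form. Transferrin receptor brings in transferrin-bound iron, Slc11a2 carries ferrous iron across the endosomal membrane, and ferroportin, abundant in macrophages that recycle red cells, lets iron out. In iron-poor cells, Aco1 and Ireb2 bind hairpins called iron-responsive elements, which blocks translation of ferritin and ferroportin mRNA and protects transferrin receptor mRNA from decay. Ferritin protein therefore can change with no change in ferritin mRNA, and only mRNA was measured here.

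The hairpins are shown because they are the stretches through which these mRNAs are read by Aco1 and Ireb2. Transcripts of GENCODE release M21 (mouse build GRCm38) were searched on the transcript strand for a C, any 5 bases, CAGTGN and 5 bases more, where N is any base and the 5 bases before the loop pair with the 5 after it (G-T pairs allowed). Capitals mark the CAGTGN loop, and the lines run 5′ to 3′. Fth1, Ftl1 and Slc40a1 each had 1 match, in the 5′ UTR, and Tfrc had 4 matches, in the 3′ UTR.
Fth1: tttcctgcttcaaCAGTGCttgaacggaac
Ftl1: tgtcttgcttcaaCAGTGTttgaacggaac
Slc40a1: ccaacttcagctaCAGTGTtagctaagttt
Tfrc, the first in its 3′ UTR: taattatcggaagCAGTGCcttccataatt
Tfrc, the second: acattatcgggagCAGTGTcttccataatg
Tfrc, the third: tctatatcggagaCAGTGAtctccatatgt
Tfrc, the fourth: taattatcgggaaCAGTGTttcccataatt
The Fth1 and Ftl1 stretches were identical at 27 of 30 positions, while each matched the Slc40a1 stretch at 13 of 30. The same pattern occurred in 257 of 16400 protein-coding genes (1.57%), and CAGTG alone in 96.0%. Slc11a2, Hmox1, Ireb2 and Aco1 had no match of these letters. The pattern misses a hairpin with another loop or with an unpaired base within the 5 pairs. No match therefore does not show that a gene lacks an iron-responsive element. A match is a description of the sequence, not a binding site measured in these cells.

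The libraries differed in how much they detected and in the cell types whose genes they held. Between 9530 and 20478 genes were above 0, and 3 libraries listed the fewest (9530 to 10938), namely BC lung metastasis 6, PDAC lung metastasis 1 and PDAC primary tumour 5. All 11 of the 72 values of these 8 genes listed at 0 lay in those 3 libraries, where 33.7% of the values of all tested genes were 0, against 6.37% in the other 6. Haemoglobin genes held 38.9 and 20.0% of the summed RPKM of PDAC liver metastases 1 and 5 and 38.6% of the PDAC lung metastasis, against 10.9 and 0.0582% in PDAC primary tumours 1 and 5. In BC lung metastases they held 0.0235 and 0.107%, against 0.00607 and 0.0084% in BC primary tumours. Against the sorted tumour-cell label, the summed RPKM of 8 carcinoma epithelium markers was 132 in the PDAC lung metastasis, with Cdh1 at 0, and 255 in PDAC liver metastasis 5, while the other 7 libraries lay between 2226 and 16559. In the PDAC lung metastasis, 7 lung epithelium markers summed to 35988 RPKM, most of it Sftpc (34207 RPKM), against 2.8 and 635 RPKM in PDAC primary tumours 1 and 5. Endothelium markers summed to 344 RPKM there, against 3.74 and 0 RPKM in those primary tumours. The part of these cell types in the levels of the 8 genes was not tested.

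Ferritin mRNA was among the most abundant messages in every library. Fth1 was the gene with the highest RPKM of all in BC lung metastasis 4 and in BC primary tumour 1, and it ranked no lower than 10 anywhere. Ftl1 ranked between 4 and 12. Together the chains made up 1.84 to 4.72% of the summed RPKM of a library. Across the 9 libraries the highest Fth1 value was 6.53-fold the lowest, and for Ftl1 it was 10.9-fold, with BC primary tumour 5 lowest for both. The near copies Ftl2 (0.622 to 10.4 RPKM) and Fth-ps2 (1.6 to 9.43 RPKM) were listed far below them, although reads shared between such copies cannot be assigned with certainty.

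**Figure D1:**
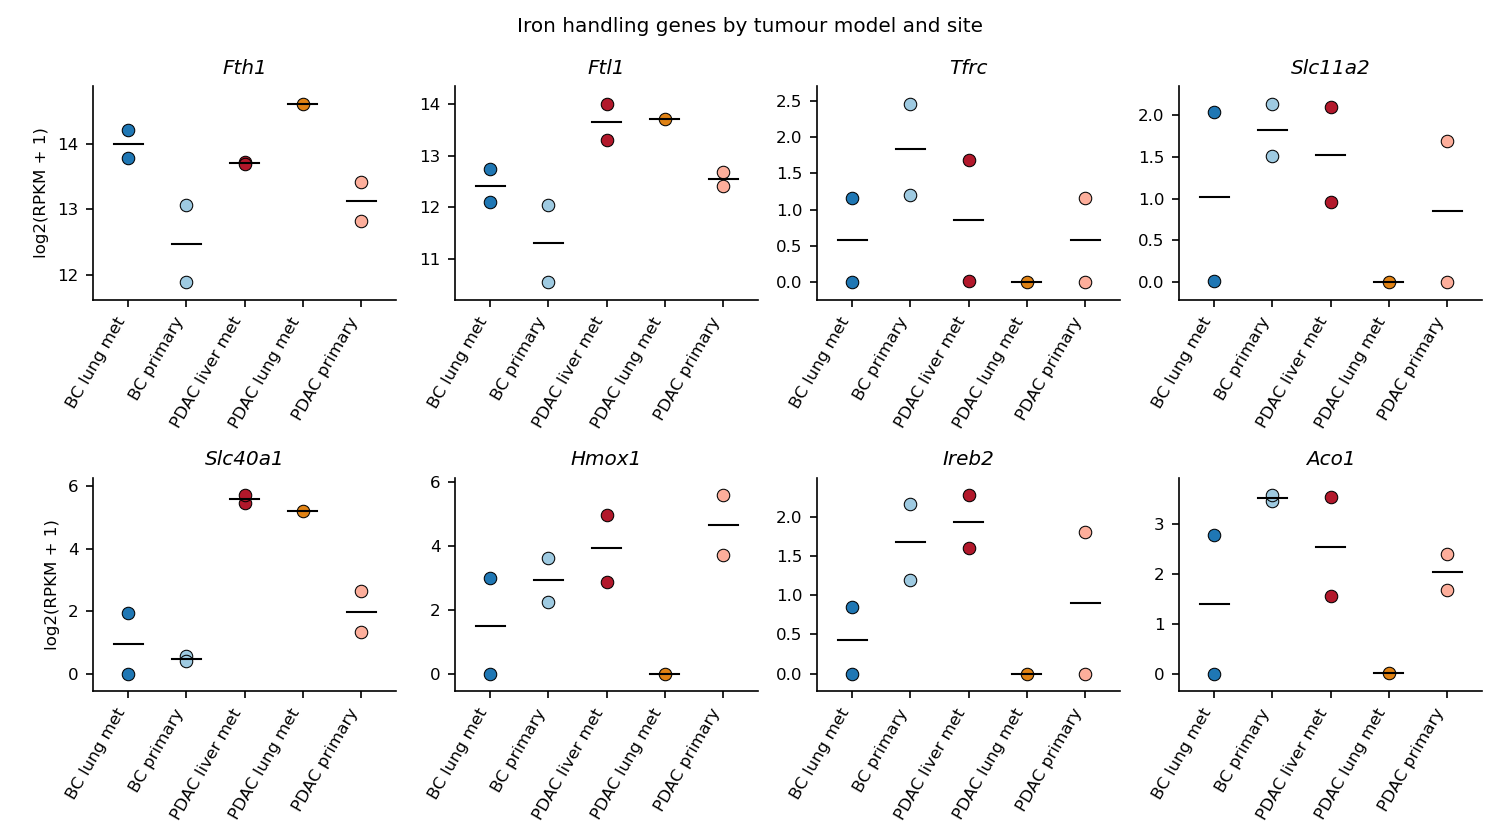
Level of each of the 8 genes, as log2(RPKM + 1) on the vertical axis (axes differ between panels and do not start at 0), by tumour model and site on the horizontal axis. Each point is 1 library and each bar a group mean (n = 2, PDAC lung metastasis n = 1); the ferritin genes lie far above the others, and Slc40a1 is high in all 3 PDAC metastases.

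Fth1 (heavy chain, ENSMUSG00000024661, chromosome 19) had 14059 and 18834 RPKM in BC lung metastases 4 and 6, against 8593 and 3813 RPKM in BC primary tumours 1 and 5. It had 13494 and 13187 RPKM in PDAC liver metastases 1 and 5 and 24894 RPKM in the PDAC lung metastasis, against 10978 and 7251 RPKM in PDAC primary tumours 1 and 5. In RPKM as deposited, every metastasis was above both primary tumours of its own model, and the lowest of the 5 metastases was above the highest of the 4 primary tumours. Of all genes tested, 47 (0.366%) separated the sites in that way, and Fth1 was the only one of the 8 that did. None of the 8 had all metastases below all primary tumours, as 0.538% of all genes did. Taken as a share of summed RPKM, the order of PDAC liver metastases and PDAC primary tumours was reversed, with 1.47 and 1.33% in PDAC liver metastases 1 and 5, against 1.97 and 1.53% in PDAC primary tumours 1 and 5. Without haemoglobin genes these shares overlapped, at 2.4 and 1.66% in PDAC liver metastases, against 2.21 and 1.53% in PDAC primary tumours, and PDAC liver metastasis 5 was also below BC primary tumour 1 (2.28%). In order of group level, the PDAC lung metastasis came first, then BC lung metastases (16447 ± 3376 RPKM, SD, n = 2), PDAC liver metastases (13341 ± 217), PDAC primary tumours (9114 ± 2636) and BC primary tumours (6203 ± 3380). The BC lung and PDAC liver means differed by less than the SD of the BC group, and the 2 primary groups, neighbours in that order, overlapped.

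Ftl1 (light chain, ENSMUSG00000050708, chromosome 7) had 4399 and 6835 RPKM in BC lung metastases 4 and 6, against 4245 and 1503 RPKM in BC primary tumours 1 and 5. It had 16417 and 10107 RPKM in PDAC liver metastases 1 and 5 and 13363 RPKM in the PDAC lung metastasis, against 6581 and 5461 RPKM in PDAC primary tumours 1 and 5. In RPKM as deposited, the metastases again lay above both primary tumours of their model, but in BC by a small margin, since lung metastasis 4 and primary tumour 1 had 4399 and 4245 RPKM. In those values the PDAC metastases all exceeded every BC library, while both PDAC primary tumours lay below BC lung metastasis 6. As a share of summed RPKM, Ftl1 was at 1.78 and 1.02% in PDAC liver metastases 1 and 5. PDAC primary tumours 1 and 5 had 1.18 and 1.15%, so these sites overlapped. The share in PDAC liver metastasis 5 was also below BC lung metastases 4 and 6 (1.13 and 1.25%) and BC primary tumour 1 (1.13%). Without haemoglobin genes the shares were 2.92 and 1.27% in PDAC liver metastases 1 and 5. They still overlapped PDAC primary tumours 1 and 5, at 1.33 and 1.15%. The ratio of heavy to light chain RPKM was 0.822 and 1.3 in PDAC liver metastases, 1.86 in the PDAC lung metastasis and 1.67 and 1.33 in PDAC primary tumours. In the BC model it was 3.2 and 2.76 in lung metastases, against 2.02 and 2.54 in primary tumours, so that every BC library had a higher ratio than every PDAC library.

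**Figure D2:**
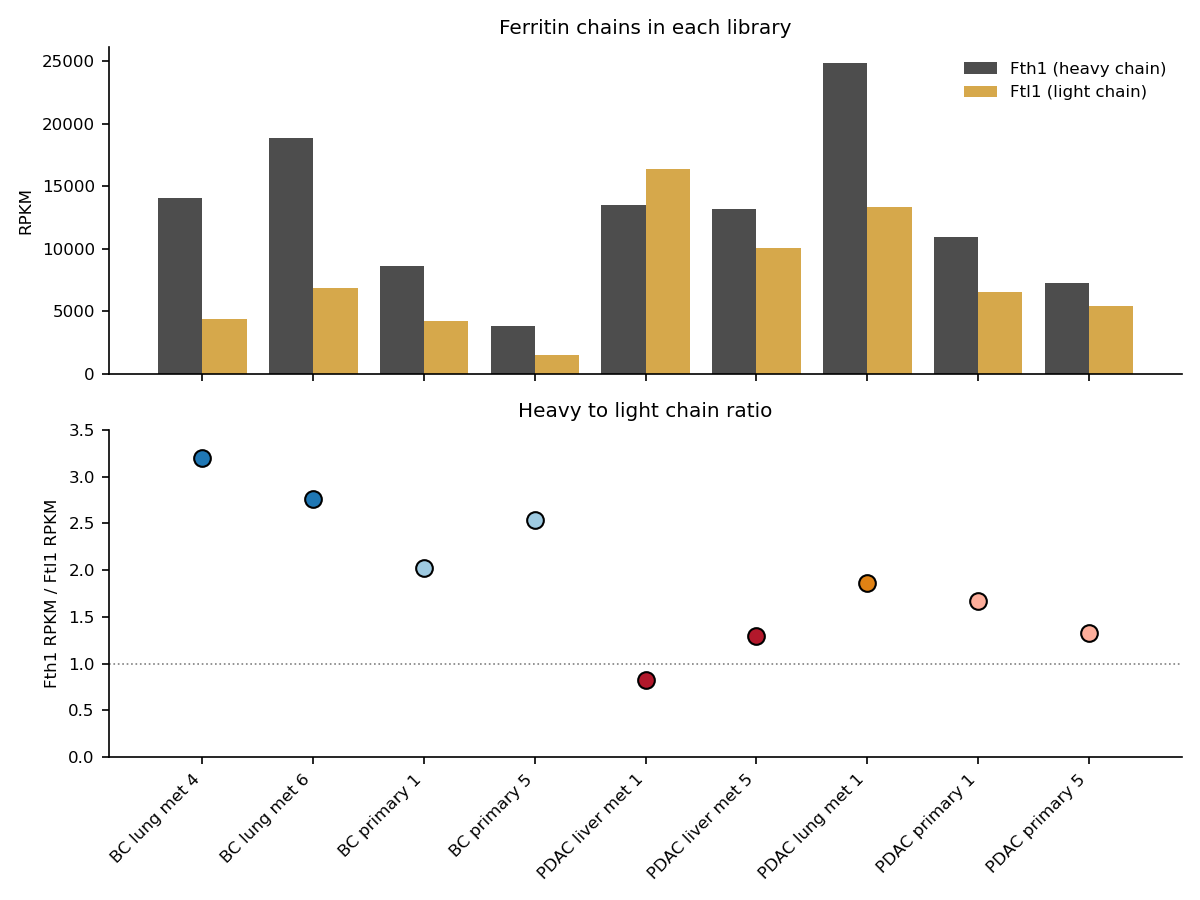
Ferritin in the 9 libraries. Bars in the upper panel give the RPKM of heavy and light chain in each library, points in the lower panel the ratio of heavy to light chain RPKM (dotted line at 1), with metastases placed before the primary tumours of the same model; the ratio is 2.02 or more in the 4 BC libraries and 1.86 or less in the 5 PDAC libraries.

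None of the ferritin differences passed an adjusted p of 0.05. In BC lung metastases against BC primary tumours, the limma log2 difference was 1.51 ± 0.47 for Fth1 (SE, n = 2 against 2, adjusted p = 0.974) and 1.12 ± 0.55 for Ftl1 (adjusted p = 0.974), where the median of all genes was -0.29. Leaving out BC primary tumour 5 brought these to 0.92 and 0.37. In PDAC liver metastases against PDAC primary tumours, the limma differences were 0.58 ± 0.47 for Fth1 (adjusted p = 0.891) and 1.10 ± 0.55 for Ftl1 (adjusted p = 0.831), but quantile scaling turned them to -1.11 and -0.28. In the PDAC lung metastasis against the same primary tumours, they were 1.48 ± 0.58 for Fth1 (adjusted p = 0.29, limma) and 1.16 ± 0.67 for Ftl1 (adjusted p = 0.507), and quantile scaling turned these too, to -0.60 and -0.12. Over both models, metastases exceeded primary tumours by 1.17 ± 0.31 for Fth1 and 1.12 ± 0.32 for Ftl1 (adjusted p = 0.853 for each, limma), and quantile scaling gave -0.38 and 0.11. In the BC comparison the direction held under both other scalings, with Fth1 at 1.02 after leaving out haemoglobin genes and 0.30 after quantile scaling, and Ftl1 at 0.63 and 0.50. By rank, Fth1 stood at 5 and 10 in PDAC liver metastases 1 and 5, against 6 and 2 in PDAC primary tumours 1 and 5. The haemoglobin share was higher in every PDAC metastasis than in both PDAC primary tumours. With haemoglobin genes left out of the scaling, Fth1 and Ftl1 were at 0.12 and 0.64 in PDAC liver metastases, 1.25 and 0.93 in the PDAC lung metastasis, and 0.74 and 0.69 over both models. Macrophage marker sums, given below, were also higher in these metastases, and their part in the ferritin levels was not tested.

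Slc40a1, or ferroportin (ENSMUSG00000025993, chromosome 1), had the highest log2 difference of the 8 genes in PDAC liver metastases against PDAC primary tumours. It had 42.7 and 51.2 RPKM in PDAC liver metastases 1 and 5 and 36.3 RPKM in the PDAC lung metastasis, against 1.53 and 5.19 RPKM in PDAC primary tumours 1 and 5. In the BC model it had 2.80 RPKM in lung metastasis 4 and was listed at 0 in lung metastasis 6, against 0.480 and 0.321 RPKM in primary tumours 1 and 5. The 3 PDAC metastases thus stood together, 6 libraries stood between 0 and 5.19 RPKM, and the BC sites overlapped. The limma log2 difference was 3.59 ± 1.14 in PDAC liver metastases against PDAC primary tumours (n = 2 against 2, adjusted p = 0.514). In the PDAC lung metastasis against the same primary tumours it was 3.23 ± 1.39 (adjusted p = 0.34, limma, n = 1 against 2), and in BC lung metastases against BC primary tumours 0.48 ± 1.14 (adjusted p = 1). The difference between the PDAC liver and BC lung effects was 3.11 ± 1.61, and it did not pass the limma test (adjusted p = 0.874). The PDAC liver difference stayed between 2.95 and 4.24 under the 19 alternative settings, at adjusted p of 0.157 to 1.

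In each PDAC metastasis, as for Slc40a1, the marker sums of macrophages, red cells and neutrophils were above those of both PDAC primary tumours. Marker sums of hepatocytes and of lymphocytes and plasma cells did not separate these sites in that way. The summed RPKM of 15 macrophage markers was 13787 and 11680 in PDAC liver metastases 1 and 5, and that of the PDAC lung metastasis was 12528, against 2833 and 941 in PDAC primary tumours 1 and 5. All 15 had a positive limma difference in PDAC liver metastases against PDAC primary tumours, as did 53.9% of all genes, with none called. Cd163 was at 0 in both of those primary tumours. Of the 15, 11 were higher in both liver metastases than in both primary tumours, as were 15.4% of all genes. Lyz2, Tyrobp and Fcer1g made up most of the sum in each PDAC metastasis. C1qa had 732 and 99.5 RPKM in PDAC liver metastases 1 and 5 and 50.6 RPKM in the lung metastasis. In PDAC primary tumours 1 and 5 it had 102 and 0.0307 RPKM. Vsig4 had 229, 5.96 and 0.633 RPKM in those metastases, against 7.76 and 0 RPKM. In BC libraries the macrophage sum was 400 to 588 in lung metastases, against 443 to 661 in primary tumours. The sum of the 9 red cell markers found was 201149 to 360003 in PDAC liver metastases and 360125 in the PDAC lung metastasis, against 276 to 61296 in PDAC primary tumours. Between the 2 PDAC primary tumours the order ran the other way, since number 1 had the higher macrophage and red cell sums and the lower Slc40a1. The 11 neutrophil markers summed to 8753 and 217940 RPKM in PDAC liver metastases 1 and 5 and 21044 RPKM in the PDAC lung metastasis, against 1299 and 367 RPKM in PDAC primary tumours 1 and 5. Hepatocyte markers, whose cells also express ferroportin, summed to 981 to 2536 RPKM in PDAC liver metastases and 8.54 RPKM in the PDAC lung metastasis, against 1.92 to 248 RPKM in PDAC primary tumours. Lymphocyte and plasma cell markers summed to 6211 and 10265 RPKM in PDAC liver metastases 1 and 5. In the PDAC lung metastasis they summed to 3113 RPKM, against 32227 and 2.02 RPKM in PDAC primary tumours 1 and 5. The part of these cell types in the Slc40a1 level was not tested. In bulk libraries, fewer cells of a type and less RNA per cell cannot be told apart.

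**Figure D3:**
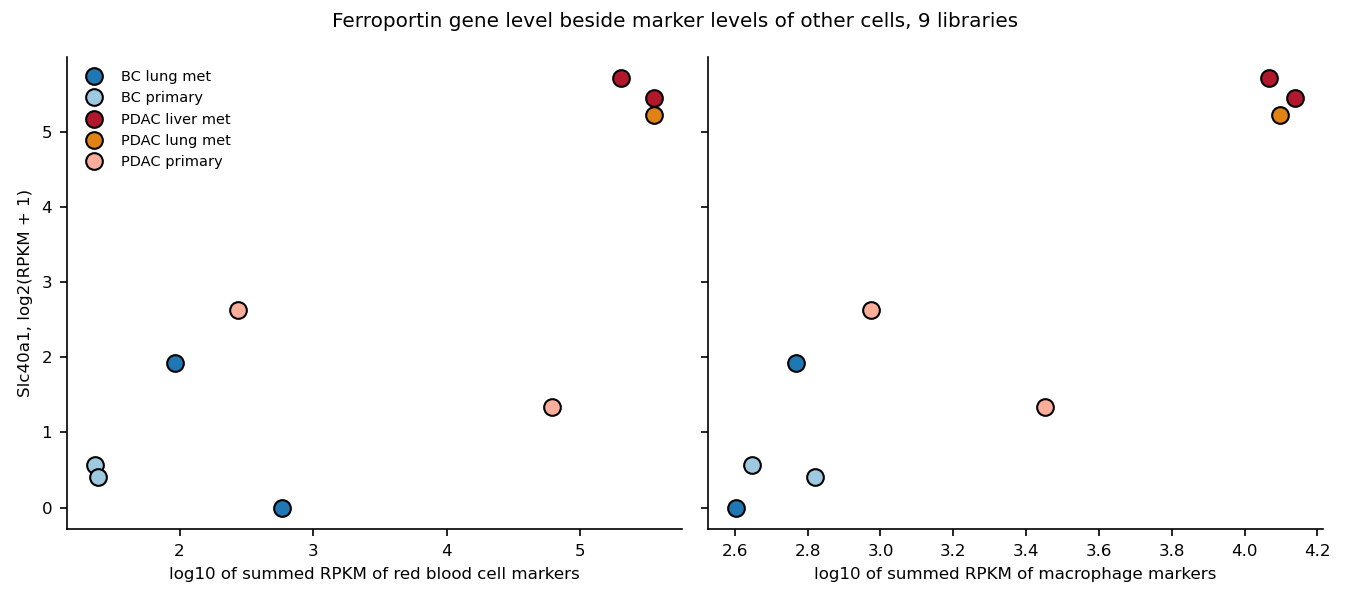
Slc40a1 level against the summed RPKM of macrophage and red cell markers, as log2(RPKM + 1) on the vertical axis and log10 of the sum on the horizontal axes, with 1 point for each of the 9 libraries. The 3 PDAC metastases, at 36.3 to 51.2 RPKM of Slc40a1, are the libraries with the highest macrophage sums (11680 to 13787 RPKM). Lyz2, Tyrobp and Fcer1g make up most of those sums.

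The importers were low, and neither separated metastases from primary tumours over both models. Tfrc (ENSMUSG00000022797, chromosome 16) had 1.24 and 0.00346 RPKM in BC lung metastases 4 and 6, against 1.30 and 4.50 RPKM in BC primary tumours 1 and 5. It had 0.00936 and 2.22 RPKM in PDAC liver metastases 1 and 5 and was listed at 0 in the PDAC lung metastasis, against 1.24 RPKM in PDAC primary tumour 1 and 0 in number 5. Tfrc lay lower in both BC lung metastases than in either BC primary tumour, with 1.24 and 1.30 RPKM nearly meeting, and the PDAC sites overlapped. The limma difference in the BC comparison was -1.25 ± 0.85 (adjusted p = 0.974), and leaving out 1 library moved it between -1.88 and -0.62. Slc11a2 (ENSMUSG00000023030, chromosome 15) had 3.11 and 0.00674 RPKM in BC lung metastases 4 and 6, against 3.41 and 1.85 RPKM in BC primary tumours 1 and 5. It had 3.28 and 0.952 RPKM in PDAC liver metastases 1 and 5 and was listed at 0 in the PDAC lung metastasis, against 2.24 RPKM in PDAC primary tumour 1 and 0 in number 5. Its sites overlapped in both models, and its near-zero values were in the 3 libraries with the fewest genes.

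Hmox1, the inducible enzyme that opens haem and frees its iron (ENSMUSG00000005413, chromosome 8), had its highest value in a primary tumour. It had 6.29 and 30.5 RPKM in PDAC liver metastases 1 and 5 and was listed at 0 in the PDAC lung metastasis, against 12.0 and 46.9 RPKM in PDAC primary tumours 1 and 5. In BC it had 7.01 RPKM in lung metastasis 4 and was listed at 0 in number 6, against 11.4 and 3.69 RPKM in primary tumours 1 and 5. Within each PDAC mouse the liver metastasis was below the primary tumour, while the liver and primary groups overlapped. The lung metastasis of PDAC mouse 1 listed Hmox1 at 0, and macrophage and red cell sums were high there. Against PDAC primary tumours, the limma log2 difference of Hmox1 was -4.64 ± 1.71 in the PDAC lung metastasis, where it was not called. That value rests on a listed 0 in the library with the fewest genes above 0 (9530). In PDAC liver metastases the difference was -0.72 ± 1.40.

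The iron regulatory proteins were low to moderate. Ireb2 (ENSMUSG00000032293, chromosome 9), which is controlled by its degradation when iron is plentiful, had 0.803 RPKM in BC lung metastasis 4 and was listed at 0 in number 6, against 1.28 and 3.46 RPKM in BC primary tumours 1 and 5. It had 3.83 and 2.02 RPKM in PDAC liver metastases 1 and 5 and was listed at 0 in the PDAC lung metastasis, against 2.51 RPKM in PDAC primary tumour 1 and 0 in number 5. Its 3 zeros were the 3 libraries with the fewest genes. Aco1 (ENSMUSG00000028405, chromosome 4), a cytosolic aconitase when it holds an iron-sulphur cluster and an RNA-binding protein without it, had 5.94 RPKM in BC lung metastasis 4 and was listed at 0 in number 6, against 10.0 and 11.0 RPKM in BC primary tumours 1 and 5. It had 10.7 and 1.93 RPKM in PDAC liver metastases 1 and 5 and 0.0151 RPKM in the PDAC lung metastasis, against 2.21 and 4.31 RPKM in PDAC primary tumours 1 and 5. Both genes lay lower in both BC lung metastases than in either BC primary tumour, with limma differences of -1.25 ± 0.88 for Ireb2 and -2.13 ± 1.24 for Aco1 (adjusted p = 0.974 for each). With only the deeper BC lung metastasis, number 4, the limma differences were -0.82 for Ireb2 and -0.73 for Aco1.

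Over the 8 genes, the limma test called 0 in any comparison at an adjusted p under 0.05, and it called few genes at all. In BC lung metastases against BC primary tumours it called 0 of 12832 genes (0%), with 265 genes (2.07%) at an unadjusted p under 0.05, Fth1 among them. There, Fth1 and Ftl1 were higher in both lung metastases than in both primary tumours, as were 15.8% of all genes, and Tfrc, Ireb2 and Aco1 were lower in both, as were 27.0%. In PDAC liver metastases against PDAC primary tumours 1 gene was called (0.00779%) and 821 (6.40%) were at an unadjusted p under 0.05, Slc40a1 among them. Fth1, Ftl1 and Slc40a1 were higher in both liver metastases than in both primary tumours, as were 15.4% of all genes, none of the 8 was lower in both, as were 10.2%, and 7 of the 8 genes had a positive difference, against 53.9% of all genes.

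In the PDAC lung metastasis against PDAC primary tumours, 75 genes were called (0.584%) and none of the 8, and 13.8% of all genes were at an unadjusted p under 0.05, with Hmox1, Fth1 and Slc40a1 among them. That comparison shares its primary tumours with the liver comparison, so the 2 are not independent. Fth1, Ftl1 and Slc40a1 lay above both primary tumours, as did 23.9% of all genes, and Hmox1 and Aco1 lay below both, as did 34.4%. Over both models, metastasis against primary, 1 gene was called (0.00779%), and 4.89% of all genes were at an unadjusted p under 0.05. Fth1, Ftl1 and Slc40a1 were at an unadjusted p under 0.05 and higher, as were 2.19% of all genes, and each had a limma adjusted p of 0.853. The metastasis effect did not pass the test for a difference between PDAC liver and BC lung for any of the 8, with 0% of all genes called and 4.13% at an unadjusted p under 0.05.

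PDAC primary tumours against BC primary tumours compared the models at the site of origin. The limma test called 4 of 12832 genes (0.0312%) and none of the 8, with 13.2% of all genes at an unadjusted p under 0.05, Ftl1 among them. Ftl1, Slc40a1 and Hmox1 were higher in both PDAC primary tumours than in both BC primary tumours, as were 15.7% of all genes. Tfrc and Aco1 were lower in both, as were 31.5%. The limma differences were 1.25 ± 0.55 for Ftl1 (adjusted p = 0.367) and 0.64 ± 0.47 for Fth1 (adjusted p = 0.562), and quantile scaling turned the Fth1 value to -0.76 while leaving Ftl1 at 0.18. With haemoglobin genes left out they were 0.08 for Fth1 and 0.69 for Ftl1, and without BC primary tumour 5 they were 0.05 and 0.50.

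**Figure D4:**
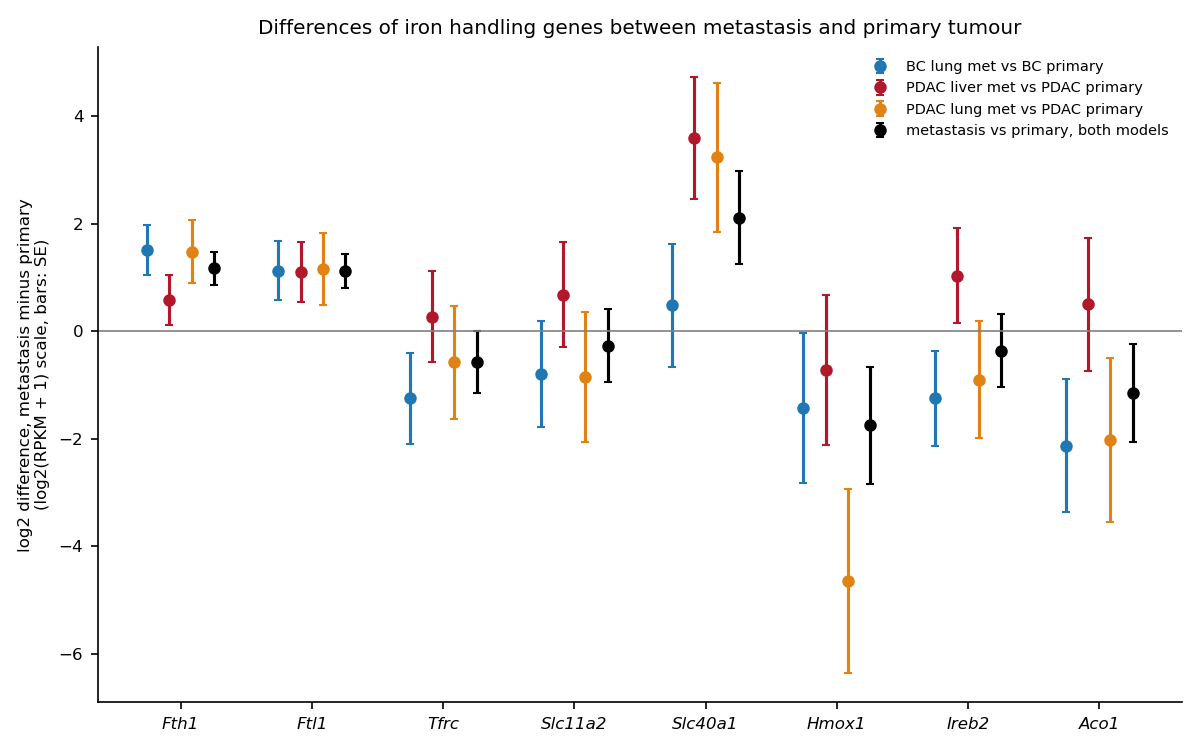
Limma log2 difference of each of the 8 genes in the comparisons of metastasis with primary tumour, with standard errors as bars. No gene passed an adjusted p of 0.05; Slc40a1 in PDAC liver metastases against PDAC primary tumours (3.59 ± 1.14) is the highest positive value among them, and quantile scaling turns the ferritin values of both PDAC metastasis comparisons negative, and that of Fth1 over both models.

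Beyond these 8, a list of 63 genes of iron and haem biology was examined, of which 59 were in the table and 51 passed the filter. Of those 51, the limma test called 1 in the PDAC lung metastasis, a single library, against PDAC primary tumours, where it called 0.584% of all genes, and 0 in each of the other comparisons. The called gene was Slc25a28 (mitoferrin 2, a mitochondrial iron importer), with 0.0517 RPKM in the PDAC lung metastasis, against 36.6 and 62.1 RPKM in PDAC primary tumours 1 and 5. It fell by 5.53 on the log2 scale (SE 1.03, limma adjusted p = 0.0477), and the call was lost in 10 of 15 alternatives, including the removal of any 1 of the 6 BC and liver libraries. In PDAC liver metastases against PDAC primary tumours the median difference of the list was 0.81, against 0.08 for all genes, and 10 of the 51 list genes were higher and 2 lower at an unadjusted p under 0.05, beside 4.89% and 1.5% of all genes. In BC lung metastases against BC primary tumours the median was -0.15, against -0.29 for all genes, with 1 of 51 higher and 0 lower at an unadjusted p under 0.05, beside 0.881% and 1.18% of all genes.

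Several haem genes of the list were high in the PDAC metastases. Alas2, which starts haem synthesis in red cell precursors, had 2377 and 2184 RPKM in PDAC liver metastases and 3006 RPKM in the PDAC lung metastasis, against 627 and 0.173 RPKM in PDAC primary tumours 1 and 5. Fech, which inserts iron into haem, had 909 and 511 RPKM in PDAC liver metastases and 1649 RPKM in the lung metastasis, against 140 and 0.022 RPKM in PDAC primary tumours. For both genes the 4 PDAC libraries with 10.9% or more haemoglobin lay above PDAC primary tumour 5, with 0.0582%, and the part of red cell precursors was not tested. Hp, encoding the haemoglobin scavenger haptoglobin, had 47.6 and 23.9 RPKM in BC lung metastases, against 1.02 and 1.05 RPKM in BC primary tumours. In PDAC it had 1181 and 3505 RPKM in liver metastases and 2479 RPKM in the lung metastasis, against 197 and 0.38 RPKM in primary tumours. All 9 tested genes of haem uptake, breakdown and export had a positive difference in PDAC liver metastases against PDAC primary tumours, as did 53.9% of all genes, with a median of 1.82, and none was called. The macrophage and hepatocyte marker sums given above were also higher in those liver metastases, Cd163 belongs to both this list and the macrophage markers, and their part in the list's values was not tested. Hpx, the haem scavenger made by hepatocytes, was nearest there, at 7.19 ± 1.12 (limma adjusted p = 0.0563).

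Iron uptake and cluster genes varied too. Lcn2, which binds iron-carrying siderophores and is abundant in neutrophils, had 228 and 155 RPKM in BC lung metastases, against 32.3 and 47.5 RPKM in BC primary tumours. In PDAC it had 128 and 3182 RPKM in liver metastases and 214 RPKM in the lung metastasis, against 44.6 and 340 RPKM in primary tumours, and there the sites overlapped. The 11 neutrophil markers summed to 1541 to 2523 RPKM in BC lung metastases, against 28.5 to 28.6 RPKM in BC primary tumours, and their part in Lcn2 was not tested. Trf, encoding transferrin, had 131 and 71 RPKM in PDAC liver metastases and 27.5 RPKM in the PDAC lung metastasis, against 19 and 23.5 RPKM in PDAC primary tumours. In BC the order was the opposite, with 1.42 RPKM and a listed 0 in lung metastases, against 2.5 and 3.38 RPKM in primary tumours. Iscu, the scaffold for iron-sulphur clusters, had 179 and 174 RPKM in PDAC liver metastases and 278 RPKM in the lung metastasis, against 102 and 50.8 RPKM in PDAC primary tumours. In BC it had 34.1 and 46.3 RPKM in lung metastases, against 27.9 and 17.6 RPKM in primary tumours. Cp, the ferroxidase that works with ferroportin, had 3.6 and 4.93 RPKM in PDAC liver metastases and 0.0164 RPKM in the PDAC lung metastasis, against 3.06 and 6.77 RPKM in PDAC primary tumours. Cp therefore did not share the pattern of Slc40a1, its PDAC liver and primary values overlapped, and so did its BC values, with 18.5 and 23.9 RPKM in lung metastases and 12.3 and 39.4 RPKM in primary tumours.

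**Figure D5:**
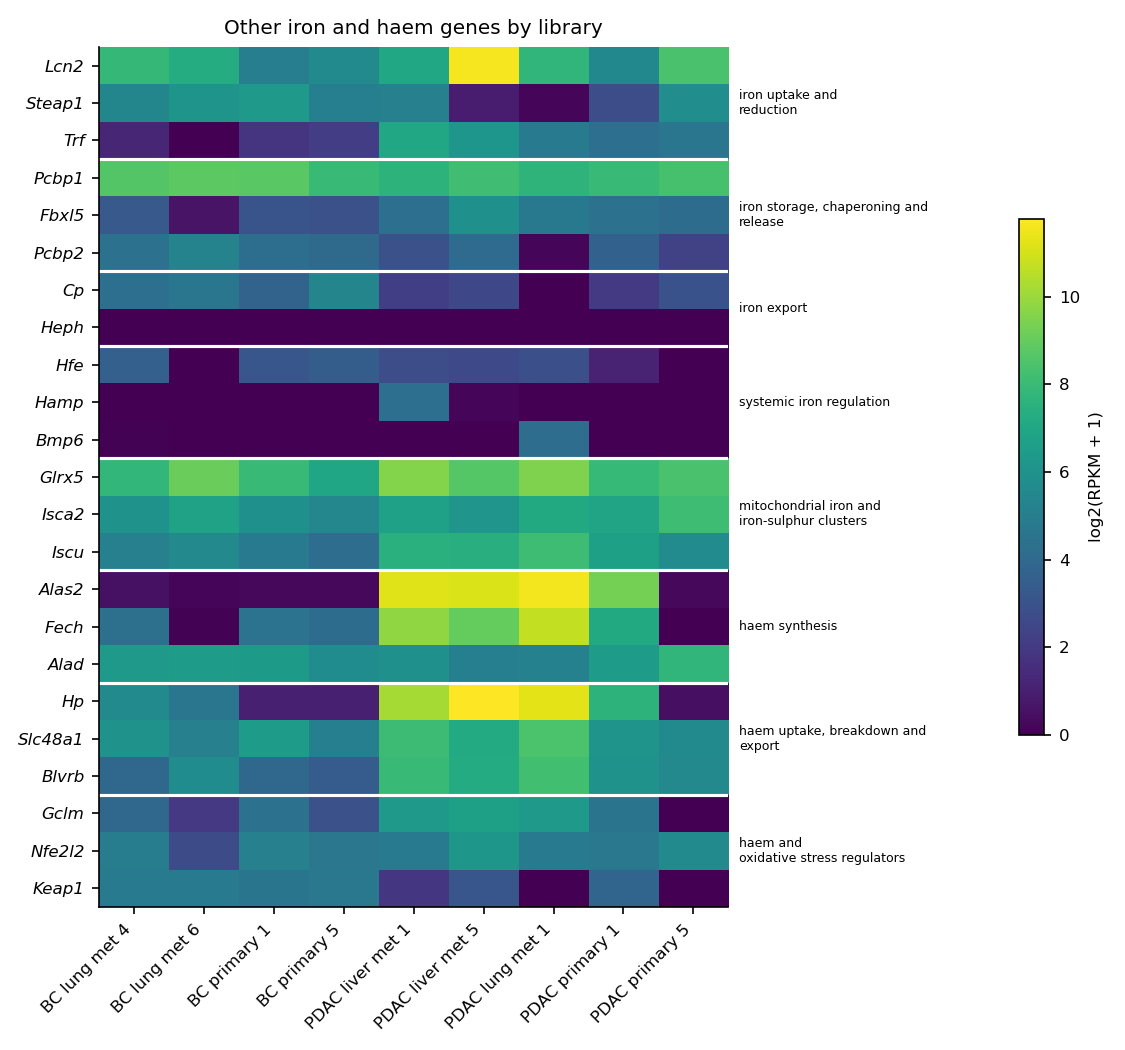
Level of other iron and haem genes, up to 3 per role chosen by mean RPKM, as colour from 0 upward on the log2(RPKM + 1) scale, with libraries in columns. Alas2 and Fech are high in the 3 PDAC metastases and in PDAC primary tumour 1 and near 0 in PDAC primary tumour 5.

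The genes whose log2 levels over the 9 libraries were most like those of these genes were listed by Pearson's r among 6965 genes averaging at least 5 RPKM, as a description of libraries that share depth and site. For Fth1 they were Tmbim4 (0.94), Coro1b (0.923) and Lgals3 (0.915), and for Ftl1 D8Ertd738e (0.951), Ubb (0.946) and Chmp2a (0.945). Fth1 and Ftl1 correlated with each other at 0.80. For Slc40a1 they were Ypel5 (0.973), Fpr1 (0.963) and Creg1 (0.946). Fpr1 is a receptor of neutrophils and monocytes. For Hmox1 they were Stard3 (0.951), Golga5 (0.949) and F8a (0.946), and for Aco1 Dhx32 (0.973), Plbd2 (0.969) and Mcm3 (0.968). The low genes Slc11a2 and Ireb2 were most like Maged2 (0.986) and Ubxn2a (0.959). Slc11a2, Ireb2, Hmox1 and Aco1 had zeros or near-zero values in libraries with the fewest genes, and these weigh on their r values.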

How the data were processed

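RNA of sorted tumour cells was sequenced in 9 libraries, made from cDNA by SMART-seq v4 ultra low input chemistry and Nextera XT tagmentation, per the labels' protocols. The genome build named is mm9, per the submitters' processing notes. An aligner and a counter are not given in the sources used here. Strand was not marked.

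The authors deposited 1 table of RPKM values, although its name says CPM, and no header gives their normalization. The unit was read from the values: with gene length, 62.5 to 74.4% of low values (under 20 reads) fell within 0.02 of whole multiples of a common step, and without length 3.14 to 16.8% did. The steps gave scaling totals of 12800000 to 131100000 reads, and the values with lengths 21300000 to 128000000 reads on genes. Lengths and hairpins came from GENCODE release M21 (GRCm38), a later build, so no positions are printed.

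Libraries were grouped by model and site. Limma 3.58.1 (R 4.3.3, statmod 1.5.0; trend and robust moderation) was fitted to log2(RPKM + 1) of all 9 libraries with group means, for the 12832 genes that reached 1 RPKM in 2 or more libraries. A fold on this scale understates changes of low genes. P-values were adjusted by Benjamini-Hochberg over all tested genes and called under 0.05. The lone PDAC lung library is assumed to vary like the other groups. The PDAC numbers were taken to pair liver and primary libraries by mouse, although deviations of the same number correlated at -0.165. The main fits used no pairing, and a block for the PDAC number was fitted only as an alternative. Over both models, the liver and lung metastases of PDAC number 1 entered as separate libraries, although they were taken as 1 mouse. The labels do not say that BC libraries of a group are separate animals, so their p-values measure only the spread between libraries, which may be technical. Named pathway genes were those called, plus the 3 with the highest mean per role. The 8 genes and the lists were chosen with earlier results of these data known. Of the listed genes, 5 were matched by identifier, and Meltf, Ftmt, Hephl1, Hjv and Ahsp were not matched.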

Additional observations from a re-analysis of the deposited data

How the results depend on the processing

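Of the 8 genes, 0 were called in any comparison under any alternative run, and the direction of Slc40a1 in both PDAC comparisons held in all of them (2.95 to 4.24 in liver, 2.59 to 3.88 in lung). The log2(RPKM + pseudocount) scale, the filter, 2 other scalings, the moderation, the libraries fitted and each replicate in turn were varied; the cause of the changes below was not tested.

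Quantile scaling turned the log2 difference of Fth1 to -1.11 and of Ftl1 to -0.28 in PDAC liver metastases, to -0.60 and -0.12 in the PDAC lung metastasis, of Fth1 to -0.38 and Slc11a2 to 0.07 over both models, and of Fth1 to -0.76 in PDAC against BC primary tumours. Without haemoglobin genes, Ftl1 turned to 0.01 in the PDAC liver minus BC lung difference. Without the 3 libraries with the fewest genes, Slc11a2 and Hmox1 turned to 0.21 and 0.07 in BC; Tfrc, Slc11a2 and Hmox1 to -0.31, -0.17 and 0.22 in PDAC liver; Slc11a2, Hmox1 and Aco1 to 0.02, 0.15 and 0.07 over both models; Ftl1 and Slc11a2 to 0.17 and -0.38 in the PDAC liver minus BC lung difference; and Ireb2 to 0.13 between primary tumours.

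Leaving out 1 library at a time turned some signs, with ranges of -0.48 to 1.44 for Slc40a1, -1.82 to 0.21 for Slc11a2 and -2.93 to 0.07 for Hmox1 in BC; -1.77 to 0.34 for Hmox1, -0.49 to 1.5 for Aco1, -0.57 to 1.11 for Tfrc and -0.17 to 1.53 for Slc11a2 in PDAC liver metastases; -0.75 to 0.19 for Slc11a2 over both models; -0.76 to 0.73 for Ftl1 and -0.79 to 2.21 for Hmox1 in the PDAC liver minus BC lung difference; -1.67 to 0.13 for Ireb2 between primary tumours. The 8 genes had 48 differences in 6 comparisons. Of these, 11 turned in this way, 25 moved by over 1.5 times without turning and 12 moved less. Among the 25, Tfrc, Slc11a2 and Ireb2 in the PDAC lung metastasis reached 0.0 without PDAC primary tumour 1. Those that moved by over 1.5 times included Fth1, Ftl1 and Tfrc in BC (0.92 to 2.09, 0.37 to 1.87 and -1.88 to -0.62), Fth1 in PDAC liver metastases (0.28 to 0.88), and Fth1, Ftl1 and Slc40a1 between primary tumours (0.05 to 1.23, 0.50 to 1.99 and 0.86 to 2.15).

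Counts of all genes called moved more. Fitted only to the groups compared, BC gave 73 (0 with all libraries), the comparison between primary tumours 0 (4) and the PDAC lung metastasis 0 (75). In PDAC liver metastases (1) the count was 0 with a pseudocount of 0.1, no filter, either other scaling, without the 3 libraries with the fewest genes, or with the replicate block for the PDAC number, and 2 without trend and robust moderation. Crossed pairing of the PDAC numbers, chosen after seeing the data, gave 46. In the PDAC lung metastasis it was 270 with a pseudocount of 0.1, 251 without the filter, 144 with quantile scaling (92 higher and 52 lower, against 22 and 53) and 0 without the moderation. Over both models (1) it was 0 with a pseudocount of 0.1, no filter, no haemoglobin genes, no moderation or without the 3 libraries, 3 at 5 RPKM and 6 with quantile scaling. Between primary tumours it was 0 without the filter, 15 with quantile scaling (6 higher, 9 lower, against 4 and 0), 1 without the moderation and 72 without the 3 libraries. Leaving out 1 library gave 0 to 1032 calls in PDAC liver metastases (1032 without PDAC primary tumour 1), 0 to 1547 in the PDAC lung metastasis (1547 without primary tumour 1, 170 without primary tumour 5, and 0 or 1 without any 1 BC library), 0 to 10 over both models, 0 to 30 for the PDAC liver minus BC lung difference and 1 to 803 between primary tumours (803 and 205 without PDAC primary tumours 1 and 5). The median difference of all genes without haemoglobin genes was -0.64 in BC (-0.29 with them), -0.15 in PDAC liver (0.08) and -0.74 between primary tumours (-0.31). With 1 or 2 libraries per group, the largest of these differences exceeded their standard errors (Fth1 over both models, 1.17 ± 0.31) but did not pass the adjustment over 12832 genes, and genes near 1 RPKM are limited by detection.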
